A study of Mus musculus with 15 samples.

Results

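Tarsal joints in week 3 to 4 of collagen-induced arthritis were compared with tarsal joints in week 1 to 2, at the same clinical score of 3. The comparison asks what differs in a joint that stays severely inflamed later in the disease. Joints were chosen by the duration and score in their labels, which gave 3 joints of week 3 to 4 (animals 54, 29 and 60) and 3 of week 1 to 2 (animals 33, 43 and 52), or 6 of the 15 joints of the series. All 6 animals were male DBA/1JBom mice, injected with chicken collagen type II in complete Freund's adjuvant on day 1 and boosted with the collagen in incomplete adjuvant on day 21. Their age was not stated. Each array held the RNA of 1 whole tarsal joint of 1 animal. By the study's methods, fur, skin and visible muscle had been cut away, while the rest of the soft tissue stayed with the bone. Joints of day 0 to 3 and of the declining phase, which had scored 3 before their score fell, and control joints entered only the estimate of the spread or are given as values. The labels call the controls non-induced while the methods of the study also describe adjuvant without collagen, and which applies was not settled here. In a whole joint, fewer cells of a type and less RNA per cell cannot be told apart.

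Collagen-induced arthritis is a mouse model of rheumatoid arthritis in which immunity to cartilage collagen is turned on the joints. Macrophages, neutrophils and fibroblasts of the synovium release interleukins, chemokines and matrix metalloproteinases, osteoclasts resorb bone, and cells of the periosteum lay down new matrix, cartilage and bone. MicroRNAs, of which let-7 was among the first to be described, are short RNAs cut from a hairpin that lower the output of mRNAs paired with their 5′ seed.

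The spread among joints of week 3 to 4 set the limits of the comparison. Over 19938 genes, pairs of week 3 to 4 joints differed by a root mean square of 0.391 to 0.424 on the log2 scale, pairs of week 1 to 2 joints by 0.244 to 0.312, and pairs across the groups by 0.336 to 0.488. Joints of week 3 to 4 thus lay about as far from each other as from the earlier joints, but not evenly. Animal 54 lay at 0.336 to 0.346 from the week 1 to 2 joints and at 0.391 and 0.424 from animals 29 and 60. Animals 29 and 60 lay at 0.416 to 0.488 from the week 1 to 2 joints. The 6 arrays had medians of 6.25 to 6.36 and SDs over genes of 1.49 to 1.65 on the log2 scale. Array names in the study carry a letter code of unknown meaning, shared by animal 54 and all week 1 to 2 joints and different for animals 29 and 60, so code and duration can be told apart only through animal 54. Markers of the tissues to be looked for in such a joint were measured in all 6: the mean of 5 osteoclast markers was 8.72 to 9.34 in week 3 to 4 and 9.08 to 9.46 in week 1 to 2, that of 5 chondrocyte markers 7.31 to 7.5 and 7.33 to 7.57, and that of 3 tendon markers 8.32 to 8.66 and 8.40 to 8.69. Markers of epidermis, a tissue the dissection should have removed, were also measured and differed between the joints, as given below.

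Of 19938 genes, 1 passed an adjusted p of 0.05 by limma with Benjamini-Hochberg adjustment (0.00502%), the microRNA gene Mirlet7c-1, which was lower in week 3 to 4. The next lowest adjusted p was 0.383. At an unadjusted p under 0.05 there were 993 genes (4.98%), 654 higher (3.28%) and 339 lower (1.7%) in week 3 to 4. Of these, 141 were at least 2-fold higher (0.707%) and 44 at least 2-fold lower (0.221%). All values of week 3 to 4 lay above those of week 1 to 2 for 1975 genes (9.91%) and below them for 1011 (5.07%). Positive differences made up 53.8% of genes, with a median of 0.02 on the log2 scale. Log2 differences are week 3 to 4 minus week 1 to 2 throughout, and apart from Mirlet7c-1 every gene is described by its values, none having passed the adjusted test. The 95% interval of a typical gene reached 0.43 to each side, so a difference under 0.43 lay within the error for a gene of typical spread.

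Mirlet7c-1 encodes the hairpin of let-7c-1 on chromosome 16 (chr16:77599657-77599750, plus strand, GRCm38.p6), inside the host transcript Mir99ahg together with Mir99a and Mir125b-2. The sequences below, from RefSeq on GRCm38.p6, are shown because the one call falls in a family whose members differ by few bases. In the hairpin the capitals mark the mature let-7c-5p, and in the mature forms they mark the seed, bases 2 to 8 from the 5′ end.
let-7c-1 hairpin: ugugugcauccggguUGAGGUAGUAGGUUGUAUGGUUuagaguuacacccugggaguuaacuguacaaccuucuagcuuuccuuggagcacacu
let-7c-5p: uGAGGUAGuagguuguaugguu
let-7a-5p: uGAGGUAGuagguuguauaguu
let-7b-5p: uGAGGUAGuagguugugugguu
let-7d-5p: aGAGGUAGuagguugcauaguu
let-7e-5p: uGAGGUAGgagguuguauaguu
let-7f-5p: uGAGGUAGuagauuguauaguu
let-7g-5p: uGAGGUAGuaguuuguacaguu
let-7i-5p: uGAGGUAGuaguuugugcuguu
miR-98-5p: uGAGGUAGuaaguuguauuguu

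All these mature forms carry the same seed, and counted from base 1 of let-7c-5p, let-7a-5p differs by G19A alone and let-7b-5p by A17G alone. Forms that differ by 2 substitutions are let-7e-5p (U9G and G19A), let-7f-5p (G12A and G19A) and miR-98-5p (G11A and G19U).

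The probe set of Mirlet7c-1 (10436602) read 3.54, 3.61 and 3.32 in animals 54, 29 and 60 of week 3 to 4, against 5.15, 5.38 and 4.64 in animals 33, 43 and 52 of week 1 to 2, on the log2 scale. No value of one group reached the other. The gene fell to 3.49 ± 0.15 in week 3 to 4, against 5.06 ± 0.38 in week 1 to 2 (SD, n = 3 each), which is 2.97-fold lower (log2 difference -1.57, standard error 0.20, 95% interval -2.0 to -1.15, adjusted p = 0.0376 by limma). Week 1 to 2 stood apart from the other phases as well: controls read 3.56 to 3.72, day 0 to 3 3.86 and 4.19, and the declining phase 3.61 to 4.07. The signal was dim, with 7.61% of genes lower on average over the 6 joints, and whether the probes read the hairpin, the mature form or a longer transcript was not tested. The call did not hold in every fit. The adjusted p was 0.105, 0.335, 0.183 and 0.136 without animal 33, 43, 29 or 60, 0.022 and 0.012 without animal 54 or 52, and 0.506 with the epidermal mean held, with a range of 0.00673 to 1 over the 24 alternatives that tested the gene, at log2 differences of -1.78 to -1.22.

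Of 12 let-7 family hairpins in RefSeq, 10 had a probe set that names them alone, while those of Mirlet7b and Mirlet7c-2 also name a long RNA and were not used. The other 9 had differences of -0.52 to 0.56. Mirlet7f-2 read 4.02, 4.35 and 4.49 in week 3 to 4, against 3.81, 3.74 and 3.64 in week 1 to 2 (log2 difference 0.56, adjusted p = 0.770), and Mirlet7e read 6.33, 6.43 and 6.33, against 5.77, 5.91 and 6.03 (0.46, adjusted p = 0.896). Both thus lay on the opposite side from Mirlet7c-1, with no overlap between the groups. Within its own transcript, Mir99a differed by -0.11 (95% interval -1.95 to 1.72), Mir125b-2 by 0.01 (-0.43 to 0.44), and the 4 probe sets of Mir99ahg by -0.67 to -0.03, none of which passed. A second microRNA gene among the largest negative differences, Mir103-2, read 4.68, 5.53 and 5.16 in week 3 to 4 and 6.50, 5.89 and 6.68 in week 1 to 2 (log2 difference -1.24, adjusted p = 0.798). Mir103-1, whose hairpin yields the same mature miR-103-3p, differed by 0.05. Over 296 microRNA genes, 12 were higher and 7 lower at an unadjusted p under 0.05, against 3.28% and 1.7% of all genes, with a median difference of 0.04.

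**Figure D1:**
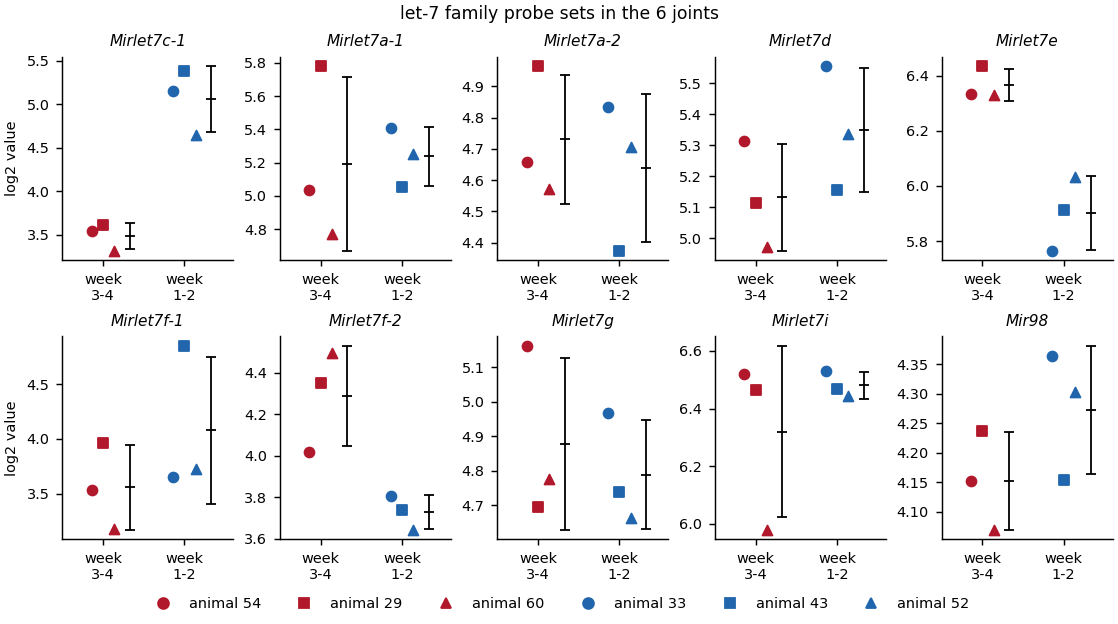
Log2 values (y axis, own scale in each panel) of the 10 let-7 family genes with a probe set of their own, in the joints of week 3 to 4 (red) and week 1 to 2 (blue). Symbols are single joints and black bars the mean ± SD of 3. Mirlet7c-1 lies at 3.32 to 3.61 in week 3 to 4 and at 4.64 to 5.38 in week 1 to 2, while Mirlet7e and Mirlet7f-2 lie higher in week 3 to 4 and the other 7 overlap.

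Genes of the epidermis had the largest differences of all, and 2 of the 3 joints carried them. Krt2, a keratin of the upper epidermis, read 6.47 in animal 54, 11.08 in animal 29 and 11.30 in animal 60 of week 3 to 4, against 5.35, 4.77 and 4.82 in week 1 to 2 (log2 difference 4.63, standard error 1.18, 95% interval 2.10 to 7.17, adjusted p = 0.770). Krt10, a keratin of the suprabasal layers, read 8.78, 12.47 and 12.29 in week 3 to 4, against 6.85, 6.90 and 7.66 in week 1 to 2. In both genes all 3 later joints lay above the earlier ones, animal 54 the least and animals 29 and 60 by several log2 units. The same order was seen for loricrin (Lor), the main protein of the cornified envelope, at 7.15, 11.19 and 10.92 in week 3 to 4, against 5.35, 5.62 and 6.05 in week 1 to 2. Differences of the other 7 largest members ran from 3.41 for the basal keratin Krt5 to 4.45 for Krtdap, with Krt24, Krt1, Lce1a1, Mt4 and Calm4 between them, at adjusted p of 0.770 to 0.798.

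Over the whole list of 100 epidermal differentiation genes, 0 passed the adjusted test and 95 differences were positive, with a median of 1.02. At an unadjusted p under 0.05, 64 were higher and 0 lower, against 3.28% and 1.7% of all genes. The list mean was 6.03, 7.88 and 7.77 in animals 54, 29 and 60, against 5.77, 5.66 and 5.94 in animals 33, 43 and 52. For 93 of the 100 genes animal 54 was the lowest of the 3 later joints, and its values alone gave a list median of 0.20. The same list was at 7.64 to 8.55 in the declining phase, 5.69 and 5.78 at day 0 to 3, and 6.04, 6.18 and 7.62 in controls, where 83 of the genes were highest in control 3. The declining joints carry the letter code of animals 29 and 60, and the day 0 to 3 joints that of animal 54 and week 1 to 2. Joints with the former code thus had epidermal means of 7.64 to 8.55, and joints with the latter 5.66 to 6.03. Controls carry no code. Code and phase could not be told apart as sources of this split. A high epidermal mean was thus found in diseased and in control joints. Its part in the differences between week 3 to 4 and week 1 to 2 was not tested apart from the fits given below. Of 39 hair follicle genes, 31 were positive at a median of 0.17, but the median was -0.07 with animal 54 alone (14 positive) and -0.20 with the epidermal mean held (12 positive). The largest difference was that of the transcription factor gene Hoxc13 (5.37, 5.70 and 5.48 in week 3 to 4 and 4.66, 4.91 and 4.81 in week 1 to 2). All 8 melanocyte genes were positive, led by Dct of the pigment pathway at 0.77.

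The skin set, 277 genes of epidermis, hair and pigment cells, was therefore set apart. It was drawn from gene lists and symbol patterns, so genes outside it can also be expressed in skin. It held 56 of the 141 genes at least 2-fold higher at an unadjusted p under 0.05 and 0 of the 44 lower ones. Of the 85 higher genes outside it, animal 54 was the lowest later joint for 74, against 22.7% of all genes, and control 3 the highest control for 68, against 28.9% of all genes. When the epidermal list mean of each joint was held in the fit, the median difference of these 85 went to 0.40, against 1.37 without it, and 14 were still at least 2-fold higher at an unadjusted p under 0.05. The 44 lower genes had a median of -1.41 with the epidermal mean held and -1.17 without it, and 35 still passed the same limits. For the 56 skin genes the median went to 0.20, against 2.26 without the epidermal mean. That drop was largely built in, because the skin set includes the epidermal list from which the mean was taken. Without animal 54, limma called 42 genes, of which 41 were higher in week 3 to 4 and 18 belonged to the skin set. Called genes outside the set included Dsg3, Serpinb5, Trim29, Fa2h and Far2, and whether skin was their source was not tested.

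**Figure D2:**
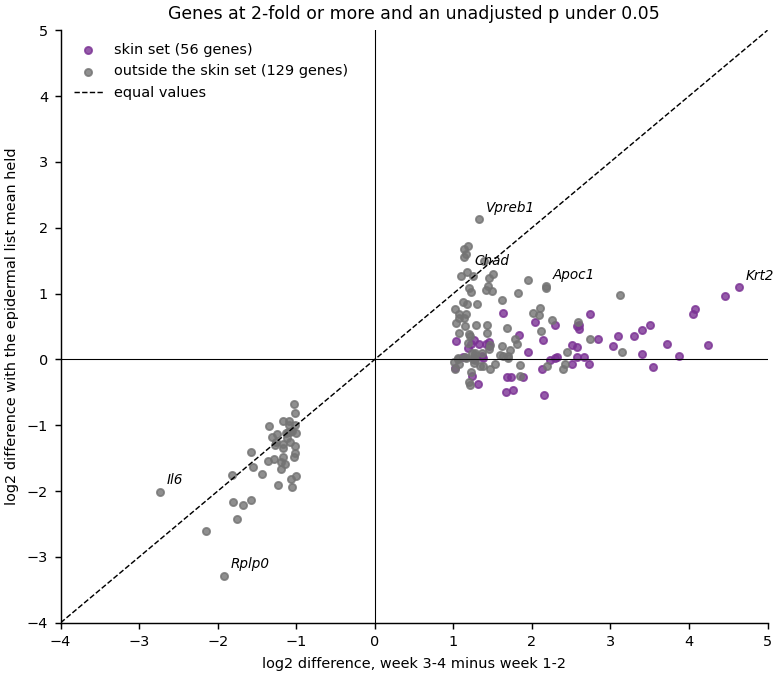
Log2 difference of each of the 185 genes at least 2-fold different at an unadjusted p under 0.05 (x axis), against its difference in the fit that holds the epidermal list mean of each joint (y axis). Purple points are the 56 genes of the skin set and grey points the 129 others, and the dashed line marks equal values. Skin genes gather near 0 on the y axis, which is largely built in, as the skin set includes the epidermal list behind the held mean. Genes with negative differences stay near or below the line.

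All 15 of the largest positive differences outside the skin set were smaller with the epidermal mean held in the fit. Whether these genes were expressed in skin or in other tissue of the joint was not tested. Elovl6, a fatty acid elongase, read 7.44, 9.59 and 9.81 in week 3 to 4, against 6.28, 6.78 and 7.22 in week 1 to 2 (log2 difference 2.18, adjusted p = 0.744, and 1.09 with the epidermal mean held). Fa2h, which hydroxylates fatty acids of sphingolipids, read 6.75, 8.18 and 8.6, against 6.12, 5.92 and 6.03 (1.82, adjusted p = 0.383, and 1.0 with that mean held). In controls 1, 2 and 3 Elovl6 read 7.28, 5.75 and 7.16 and Fa2h 6.73, 6.95 and 7.08, while all declining joints read 8.38 or more for both. Far2, a fatty acyl reductase, differed by 2.08 and by 0.67 with the epidermal mean held, and Sptlc3, a subunit of serine palmitoyltransferase, by 1.72 and by 0.14. The short-chain dehydrogenase gene Sdr16c6 differed by 3.12 and by 0.97 with the mean held, the calcium-binding protein gene S100a14 by 2.74 and by 0.31, and Dapl1 by 3.15 and by 0.11. Dapl1 read 10.43 in control 3 and 6.41 and 7.03 in the other controls. The 7 others were Fam25c, Gm94, Serpina3b, Aadacl4, Serpinb6d, Stfa3 and Teddm3, at 1.70 to 2.43 and at -0.063 to 1.2 with the mean held. The apolipoprotein gene Apoc1 read 8.66, 9.64 and 9.83 in week 3 to 4, against 7.68, 7.10 and 6.82 in week 1 to 2, with no overlap. Apoc1 read 8.26, 7.75 and 9.45 in controls 1, 2 and 3, 9.63 to 10.79 in declining joints, and 7.30 and 6.92 at day 0 to 3. Its log2 difference was 2.18 (standard error 0.43, 95% interval 1.26 to 3.10, adjusted p = 0.407), and 1.11 with the epidermal mean held.

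Cytokines and chemokines that recruit and activate leukocytes were among the largest negative differences. Il6, a cytokine of synovial fibroblasts and macrophages that drives the acute phase, read 5.03, 4.17 and 5.30 in week 3 to 4, against 5.81, 8.43 and 8.49 in week 1 to 2. Its log2 difference was -2.74 (standard error 0.68, 95% interval -4.20 to -1.28, adjusted p = 0.760), and -2.01 with the epidermal mean held. The groups did not overlap, but animal 33 lay just above the highest later joint while animals 43 and 52 lay far above. Il1b, the inflammasome cytokine, read 6.58, 6.36 and 7.37 in week 3 to 4, against 7.31, 9.13 and 9.33 in week 1 to 2 (log2 difference -1.82, standard error 0.42, adjusted p = 0.617). Here animal 33 fell within the later joints, and without it Il1b was the 1 gene called, at -2.46 and adjusted p = 0.0139. The neutrophil chemokine gene Cxcl5 read 5.45, 5.18 and 7.05, against 6.14, 7.66 and 8.6 (log2 difference -1.57), and the monocyte chemokine gene Ccl2 6.84, 6.26 and 7.18, against 7.21, 8.20 and 8.37 (-1.17). Of 48 cytokine and chemokine genes, 0 passed the adjusted test and the median difference was -0.05. At an unadjusted p under 0.05, 8 were lower and 3 higher, against 1.7% and 3.28% of all genes. Large negative differences were thus found in some members, while the list median lay near 0.

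Serum amyloid A3 (Saa3), an acute phase protein also made in inflamed joints, read 8.41, 9.21 and 11.31 in week 3 to 4, against 10.80, 11.57 and 11.81 in week 1 to 2 (log2 difference -1.75, standard error 0.76, adjusted p = 0.956). Animal 60 lay within the range of the earlier joints. Prostaglandin synthase 2 (Ptgs2) read 7.07, 6.40 and 6.97 in week 3 to 4 and 7.10, 7.77 and 8.31 in week 1 to 2, with a difference of -0.91. Of the 20 genes of the acute phase list, 3 were lower and 1 higher at an unadjusted p under 0.05, against 1.7% and 3.28% of all genes.

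Macrophage genes had mostly negative differences, with 8 of 36 positive against 53.8% of all genes and a median of -0.28. At an unadjusted p under 0.05, 7 were lower and 0 higher, against 1.7% and 3.28% of all genes (0 at the adjusted one). Clec4e, a receptor for mycobacterial cord factor, had the largest difference of the list at -1.43, with 5.46, 5.38 and 6.60 in week 3 to 4 and 5.81, 7.80 and 8.12 in week 1 to 2. Its neighbours of the same receptor family, Clec4d and Clec4n, differed by -1.02 and -0.87, and Ms4a6d, the 1 of these 4 with no overlap, by -0.90. In each of the 3 receptor genes animal 33 lay within the later joints. The defining markers differed less: the mean of Csf1r, Adgre1, Cd68 and Tyrobp was 9.22, 8.96 and 9.45 in week 3 to 4 and 9.0, 9.49 and 9.53 in week 1 to 2. Over the 44 lower genes outside the skin set, animal 33 was the lowest of its group for 34 (35.5% of all genes) and animal 60 the highest of its group for 33 (30.8% of all genes).

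**Figure D3:**
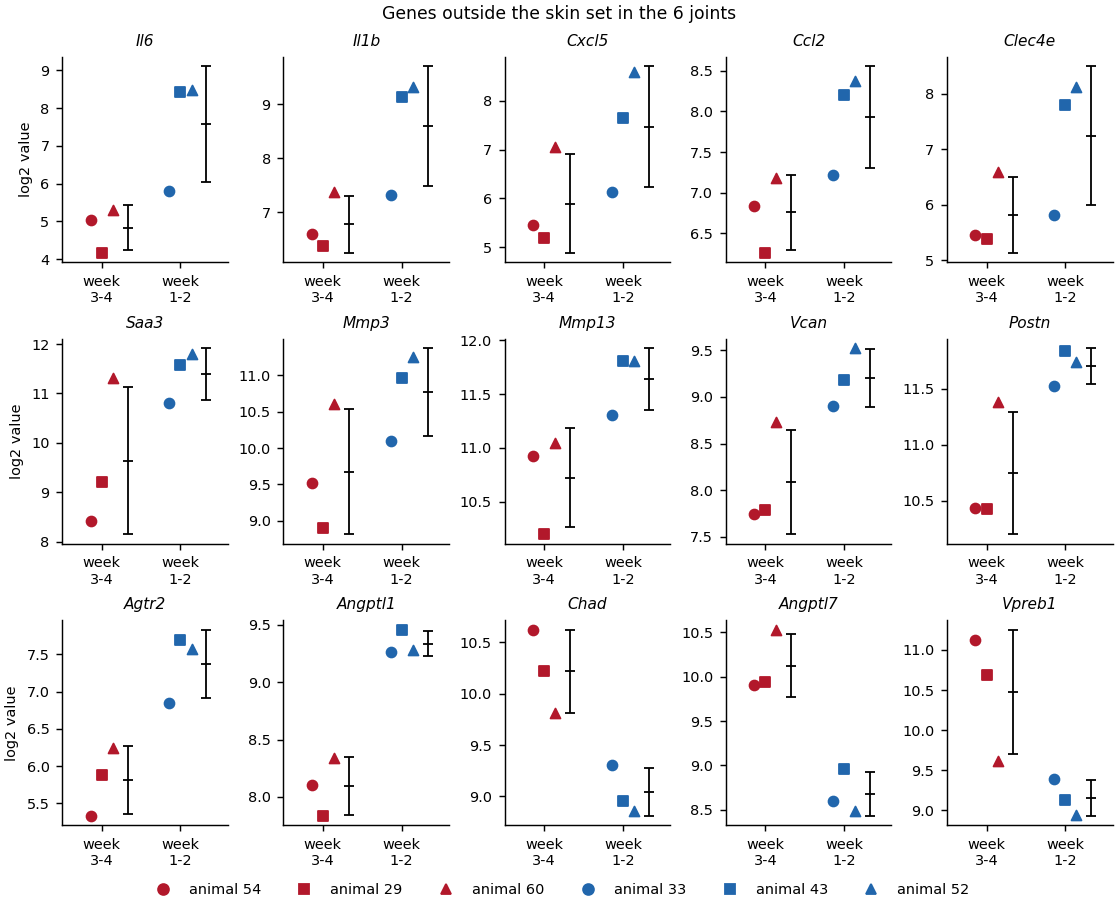
Log2 values (y axis, own scale in each panel) of 15 genes outside the skin set in the joints of week 3 to 4 (red) and week 1 to 2 (blue). Symbols are single joints and black bars the mean ± SD of 3. Animal 33 lies nearest the later joints for Il6, Il1b, Cxcl5 and Clec4e, and for Angptl1 and Angptl7 the gap between the groups exceeds the range within either.

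Matrix-degrading enzymes showed the same sign in most members. Of 34 protease and inhibitor genes 4 were positive, against 53.8% of all genes, at a median of -0.26. At an unadjusted p under 0.05, 5 were lower and 1 higher, against 1.7% and 3.28% of all genes. Collagenase 3 (Mmp13) read 10.92, 10.20 and 11.04 in week 3 to 4, against 11.30, 11.81 and 11.80 in week 1 to 2 (log2 difference -0.92, 95% interval -1.94 to 0.11). Stromelysin (Mmp3) read 9.52, 8.91 and 10.61, against 10.10, 10.96 and 11.25 (-1.09, interval -2.26 to 0.08), with animal 60 among the earlier joints. The aggrecanase genes Adamts1 and Adamts5 differed by -0.83 and -0.77, and the inhibitor gene Timp1 by -0.70. Controls read 6.79 to 8.75 for Mmp13, below all 6 arthritic joints.

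Among small proteoglycans and matricellular proteins, 26 of 34 genes had negative differences. The median was -0.21, and 5 were lower and 0 higher at an unadjusted p under 0.05, against 1.7% and 3.28% of all genes. Without overlap, 13 lay lower in week 3 to 4, against 5.07% of all genes. Versican (Vcan), a large proteoglycan of provisional matrix, read 7.74, 7.78 and 8.73 in week 3 to 4, against 8.90, 9.18 and 9.52 in week 1 to 2 (log2 difference -1.12, standard error 0.32, adjusted p = 0.770). Periostin (Postn) read 10.43, 10.43 and 11.38 in week 3 to 4, against 11.53, 11.84 and 11.74 in week 1 to 2 (-0.96, 95% interval -2.23 to 0.31). Animal 60 came closest to the earlier joints in both. Mfap5 of the microfibrils differed by -0.98, the collagen-associated Cthrc1 by -0.85, and the leucine-rich proteoglycans osteoglycin (Ogn) and lumican (Lum) by -0.74 and -0.52, all without overlap. Collagen chains themselves stayed near the median of all genes (31 genes, median -0.04), with Col12a1 the largest at -0.66. Among synovial fibroblast genes, cadherin 11 (Cdh11) read 9.95, 9.66 and 9.87 in week 3 to 4 and 10.34, 10.70 and 10.53 in week 1 to 2, and the hyaluronan synthase gene Has2 differed by -0.66.

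Single genes of cartilage and bone matrix were among the positive differences outside the skin set. Chondroadherin (Chad), a leucine-rich protein of cartilage, read 10.62, 10.22 and 9.82 in week 3 to 4, against 9.31, 8.96 and 8.86 in week 1 to 2. It was 2.27-fold higher (log2 difference 1.18, standard error 0.20, 95% interval 0.74 to 1.62, adjusted p = 0.383), and the difference was 1.32 with the epidermal mean held and 1.58 in animal 54 alone. Chad read 10.26 to 10.65 in controls and 7.48 and 7.57 at day 0 to 3. Cytl1, a secreted protein of chondrocytes, read 7.45, 7.6 and 7.64 in week 3 to 4, against 7.11, 6.62 and 6.62 in week 1 to 2, and the WNT inhibitor gene Wif1 differed by 0.52. Of 34 cartilage genes 21 were positive, against 53.8% of all genes, at a median of 0.07, near that of all genes. At an unadjusted p under 0.05, 3 were higher and 0 lower, against 3.28% and 1.7% of all genes. The defining chondrocyte markers went mostly the other way, with 1 of 5 positive at a median of -0.10. Among them aggrecan (Acan) read 8.52, 8.51 and 8.49 in week 3 to 4, against 8.78, 8.61 and 8.58 in week 1 to 2. Angptl7, a secreted protein on the tendon list, read 9.91, 9.94 and 10.53, against 8.59, 8.96 and 8.48 (log2 difference 1.45, standard error 0.32, adjusted p = 0.617), while the tendon proteoglycan keratocan (Kera) differed by -0.81.

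In bone, the osteoblast transcription factor gene Dlx5 read 9.14, 8.80 and 8.84 in week 3 to 4, against 8.5, 8.19 and 8.42 in week 1 to 2 (0.56, adjusted p = 0.770). The osteocyte matrix genes Dmp1 and Mepe differed by 0.57 and 0.41 and the transcription factor gene Irx5 by 0.62, all 3 without overlap. Phospho1, which starts mineral formation in matrix vesicles, differed by 0.61. These were single members: 12 of 20 osteoblast and 9 of 14 osteocyte genes were positive, at medians of 0.06 and 0.03. Without overlap, 2 osteoblast genes lay higher and 3 lower, and 3 osteocyte genes lay higher and 0 lower. The shares of all genes were 9.91% higher and 5.07% lower. Of 24 osteoclast genes 11 were positive at a median of -0.01, with cathepsin K (Ctsk) at 10.78, 10.23 and 11.25 in week 3 to 4 and 11.09, 11.47 and 11.44 in week 1 to 2. Among growth factors, Bmp4 read 7.91, 7.48 and 7.63, against 7.10, 7.24 and 7.15 (0.51), the activin chain gene Inhba differed by -0.80, the WNT agonist gene Rspo3 by -0.60 and Igf1 by -0.49, with no overlap in any of the 4.

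Of 23 B and plasma cell genes 16 were positive, and 3 were higher and 0 lower at an unadjusted p under 0.05, against 3.28% and 1.7% of all genes. Vpreb1, part of the surrogate light chain of pre-B cells, read 11.12, 10.69 and 9.61 in week 3 to 4, against 9.39, 9.12 and 8.94 in week 1 to 2 (log2 difference 1.32, standard error 0.43, adjusted p = 0.770). Jchain and Tnfrsf17 of antibody-secreting cells differed by 1.10 and 0.48, also without overlap, while the list had a median of 0.14. The erythroid list of 15 genes had a median of 0.11. The antimicrobial granule protein gene Camp read 11.53, 11.29 and 10.23, against 9.21, 9.97 and 9.36 (1.5, adjusted p = 0.930). In contrast, the activation receptor gene Trem1 of neutrophils and monocytes read 5.37, 5.33 and 5.18, against 5.17, 6.72 and 6.94 (-0.98). Camp and Trem1, both of the neutrophil list, thus differed in opposite directions. The list of 21 had a median of 0.40, and of 0.12 without animal 54, whose list mean was the highest of the 6 joints at 8.71. Of 19 T cell genes 10 were positive, at a median of 0.03. The largest differences in each direction were those of Cd3d, a chain of the T cell receptor complex, at 0.50, and of the checkpoint receptor gene Ctla4, at 5.83, 5.69 and 5.89, against 6.41, 6.24 and 6.64 (-0.63, adjusted p = 0.770).

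Fat, muscle and nerve lists had medians well below that of the epidermal list. The adipocyte list mean was 7.62, 7.62 and 7.63 in week 3 to 4 and 7.32, 7.44 and 7.34 in week 1 to 2, and 23 of its 28 genes were positive, among them the lipase genes Lipe and Pnpla2 at 0.50 each. Skeletal muscle genes had a median of 0.0025 over 60, though the fast-fibre light chain Mylpf and parvalbumin (Pvalb) differed by -0.71 and -0.84 without overlap. Myelin basic protein (Mbp) read 7.26, 7.23 and 7.25 in week 3 to 4, against 6.87, 6.76 and 6.76 in week 1 to 2, but the Schwann cell and myelin list had 6 of 11 genes positive and a median of 0.04, close to all genes.

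The remaining large negative differences shared no one function. Snora31, a small nucleolar RNA that guides pseudouridylation, read 4.22, 5.23 and 6.08 in week 3 to 4, against 6.75, 7.65 and 7.58 in week 1 to 2 (log2 difference -2.15, standard error 0.39, adjusted p = 0.383). The type 2 angiotensin receptor gene Agtr2 read 5.33, 5.88 and 6.24, against 6.85, 7.70 and 7.58 (-1.56, standard error 0.29, adjusted p = 0.383), and the secreted Angptl1 8.11, 7.83 and 8.34, against 9.27, 9.46 and 9.28 (-1.24, adjusted p = 0.629). In Angptl1 the gap between the groups was larger than the range within either. Eif1b, of translation initiation, differed by -1.28 (adjusted p = 0.407). Rplp0 of the ribosomal stalk differed by -1.92 and Rpa3, a subunit of the single-strand binding protein of replication, by -1.68, but a second probe set of each gave 0.24 and -0.23, so that neither gene had a settled difference. Eif3m differed by -1.36 and, on its other probe set, by -0.67. The others of the 15 were BC061237, Mrps26 of the mitochondrial ribosome, the olfactory receptor gene Olfr495, Tceal1 and the transcription factor gene Nfil3, at -1.35 to -1.19. Single members of large complexes also differed without their lists: Cox4i1 and Cox7b of the respiratory chain by -1.06 and -0.88 (37 genes, median -0.06), and Rpl5 by -0.70 and its other 4 probe sets by -0.59 to -0.03 (40 cytosolic ribosomal protein genes, median 0.04).

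Of 76 measured genes named in the study, which were chosen there on these arrays, 17 were positive, against 53.8% of all genes. Without overlap, 16 lay lower and 5 higher in week 3 to 4, against 5.07% and 9.91% of all genes, and at an unadjusted p under 0.05, 6 were lower and 4 higher, against 1.7% and 3.28%. The median was -0.26. Lists with medians within 0.10 of 0 on either side included endothelial, interferon-induced, BMP, WNT, osteoclast, proteasome and secretory pathway genes. With animal 54 alone against the earlier joints, which share its letter code, the macrophage, protease and proteoglycan medians were -0.27, -0.29 and -0.23, close to those of all joints, while the epidermal median of 0.20 was far below the 1.02 of all joints. Other lists differed by this measure too: the cytokine median was 0.05 with animal 54 alone and -0.05 with all joints, the neutrophil median 0.90 and 0.40, and the oxidative phosphorylation median -0.21 and -0.06.

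**Figure D4:**
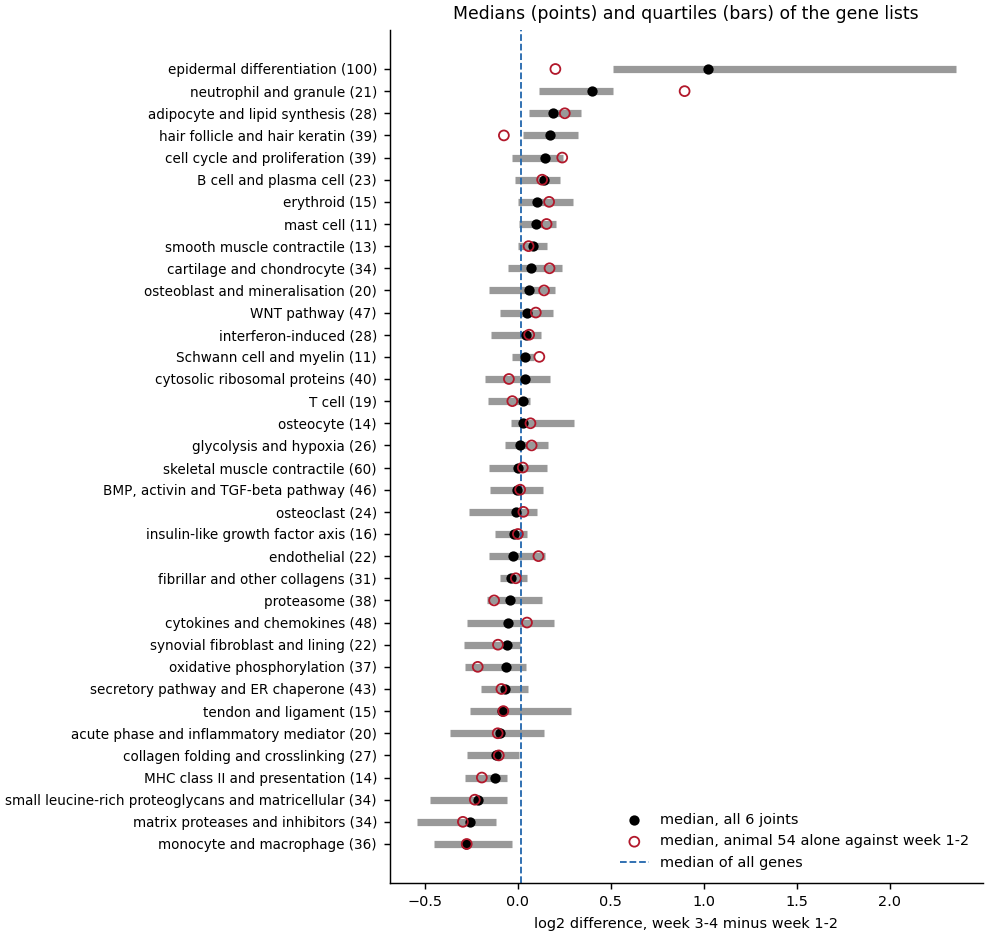
Median (black points) and quartiles (grey bars) of the log2 difference, week 3 to 4 minus week 1 to 2 (x axis), for the gene lists of 10 or more genes, with the number of genes in brackets. Red circles are the medians with animal 54 alone against week 1 to 2, and the dashed line is the median of all genes at 0.02. The epidermal list stands at 1.02 and at 0.20 with animal 54 alone, and the macrophage, protease and proteoglycan lists at -0.28, -0.26 and -0.21.

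**Figure D5:**
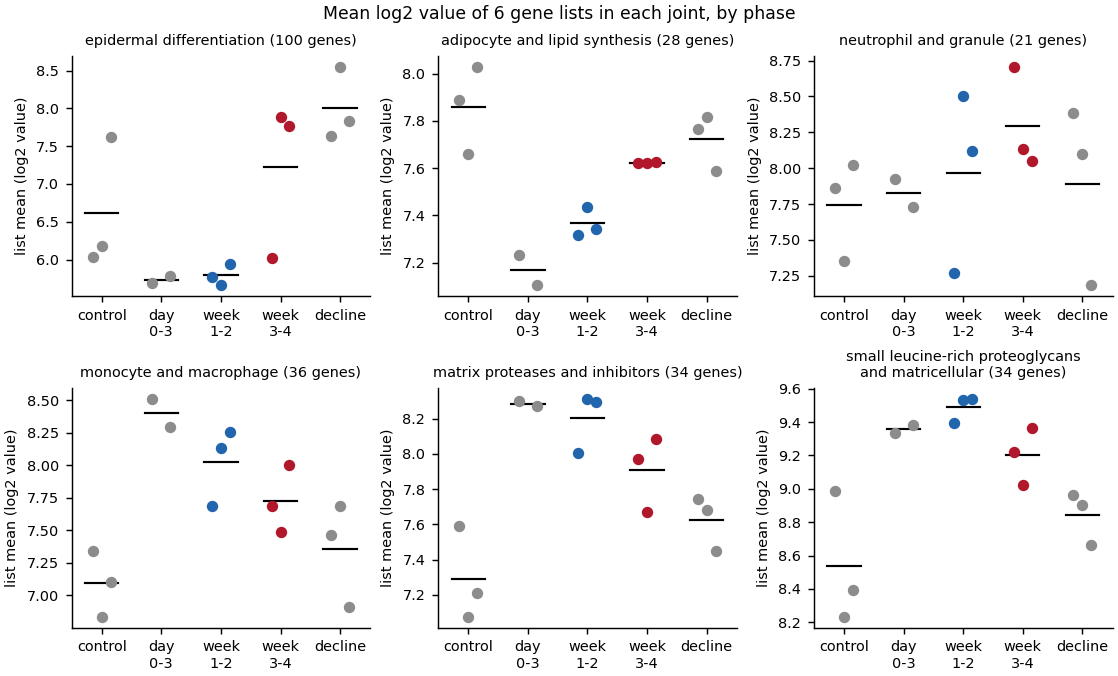
Mean log2 value of 6 gene lists (y axis, own scale in each panel) in each of 14 joints by phase (x axis). Week 1 to 2 is blue, week 3 to 4 red and the other phases grey, and black lines are group means. In week 3 to 4 the epidermal mean is 6.03 in animal 54 and 7.88 and 7.77 in the others, while the adipocyte mean is 7.62 to 7.63 in all 3.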

How the data were processed

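The deposited log2 values were made by the authors by RMA (background correction, quantile normalisation and summary of probes) with affy in R 2.15, from unpooled tarsal joint RNA extracted with mirVana columns, amplified with the Pico kit and hybridised to Affymetrix Mouse Gene 1.0 ST arrays. Of 35556 probe sets, 21789 name 1 gene, 1621 several and 12146 none listed. For 999 genes the probe set of highest mean was taken, which left 19938 genes. Animal 57, marked as failed in quality control, was left out, and 14 arrays were fitted with 5 group means in limma 3.58.1 (lmFit, eBayes, R 4.3.3), tested on simulated data. The methods name an analysis of variance without its groups. Adjusted p is by Benjamini-Hochberg over all genes, at 0.05.

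Members, lists and alternatives were chosen with earlier results of these data known. Named genes were drawn from the 15 largest differences per direction outside the skin set (10 inside), called ones first. These were taken among genes with an unadjusted p under 0.05 and no overlap. Further names came from the top 4 of each list, the study's genes of at least 0.5, and cell type markers. Not every gene that met these rules is named above, and those left out include Kazald1, Egln3 and Cdk4, each the largest of its list. Of further small RNAs, the let-7 and miR-103 relatives were named after their values were seen. Arrays have no read depth, and their number limits the precision. Figures used matplotlib 3.10.9 and Python 3.11.15. Histology and RT-qPCR were not analysed here.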

Additional observations from a re-analysis of the deposited data

How the results depend on the processing

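The 1 call became 0 with only the 6 arrays of both groups, by a plain analysis of variance of the 2 groups, and with a common median and SD for every array. It also became 0 with means of at least 6 in a group (which leaves Mirlet7c-1 untested). The same held with the muscle mean or the epidermal, muscle and fat means held, and without decline 10 and control 2. That last alternative was added after the data were seen. Array weights gave 115 (48 higher), weighting animal 60 at 0.63 and animal 52 at 3.01, and 3 of these genes were also called without animal 54. Leaving out 1 array gave 0 to 42 calls, 0 without animal 43, 29 or 60 and 42 without animal 54. The 1 gene called with the epidermal mean held was Mrrf (log2 difference -1.71), not Mirlet7c-1, which was called in 12 of the 24 alternatives that tested it. Mirlet7c-1 was also not called with the first letter code only, that of animal 54 and the week 1 to 2 joints. That fit leaves animal 54 alone in week 3 to 4, so it cannot decide whether the call holds within the code. The log2 difference of Mirlet7c-1 there was -1.52, against -1.57 in the main fit. Genes at 2-fold and an unadjusted p under 0.05, 185, were 76 by the analysis of variance, 123 with the first letter code only (37 higher) and 960 with 3 means held (191 higher). The epidermal mean alone gave 39 higher and 114 lower. With 3 means held the sign turned for Krtdap (-0.27), Lor (-0.80), Krt10 (-0.58), Krt1 (-0.25), Lce1a1 (-0.41), Mt4 (-0.019), Krt5 (-0.075), Fam25c (-0.31) and Dmp1 (-0.054), and with the epidermal mean held for Mt4 (-0.12) and Fam25c (-0.063). The cause was not tested. Of 947 list medians under the alternatives, 60 moved by more than the spread between replicates. The other 92 named genes followed kept their sign in every alternative, but not every gene named above was followed. Among those not followed, small differences also turned with the epidermal mean held. Mir99a went from -0.11 to 0.51, Mir125b-2 from 0.01 to -0.10 and the macrophage marker Adgre1 from -0.076 to 0.11. No paired analysis was possible because the replicate numbers were given in accession order to different animals.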
